A study of Arabidopsis thaliana with 6 samples.

Results

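COR27, COR15A and GI are 3 Arabidopsis thaliana genes, taken by name as those measured by a probe set that is listed for 1 gene only. They are 3 of 13286 genes with such a probe set on the microarray, and each of them had 1. The members are AT5G42900 (COR27), AT2G42540 (COR15A) and AT1G22770 (GI). Leaf RNA was hybridised on 6 Affymetrix arrays, 3 of the mutant pam48, which the labels also call mterf6-1, and 3 of wild type, both in the accession Col-0. Plants of both genotypes were raised on soil under greenhouse lamps (a fluence near 120 µmol photons m-2 s-1, 16 h light and 8 h dark), and leaves of one age were frozen when the rosette had 8 leaves. The hour of harvest, the air temperature, the number of plants behind an array and the nature of the mutation are not stated in the labels. No probe set is listed for the mutated gene, so its level was not analysed here. Each array is called a biological replicate in the labels, without saying whether the plants were grown apart, so the p-values measure the spread between these arrays.

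Cold-regulated genes are switched on when a plant meets low temperature, in large part by transcription factors of the CBF family, and many of them also follow the circadian clock, which lets the response to cold depend on the time of day. COR15A encodes a small hydrophilic protein of the chloroplast stroma that protects chloroplast membranes during freezing. COR27 is induced by cold and acts as a repressor within the clock, and GI (GIGANTEA) is a clock gene with a peak of transcript late in the day, which also acts in flowering by day length and in freezing tolerance. All 3 transcripts are therefore known to move with time of day and temperature, and COR27 and COR15A rise strongly in the cold.

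All 3 genes differed more between replicates of one genotype than between the genotypes. COR27 had a mean 3.20-fold higher in pam48, COR15A 1.23-fold and GI 1.07-fold, and none of these differences was called. On the arrays numbered 3 all 3 transcripts were at their lowest in pam48 and again in wild type. Within a replicate number COR27 and COR15A were higher in pam48 each time, while GI was higher in 2 of 3.

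COR27, the repressor within the clock, varied the most. Its level, a log2 value per probe set as are all levels below, was 9.80, 9.04 and 4.86 on pam48 replicates 1, 2 and 3, against 7.17, 7.25 and 4.25 on wild type replicates 1, 2 and 3. Both replicates numbered 3 were low, and the genotypes overlapped, since pam48 replicate 3 lay below wild type replicates 1 and 2. The span within pam48 was 4.94, or 30.8-fold, and that within wild type 2.99, or 7.97-fold. The means were 7.90 ± 2.66 in pam48 and 6.22 ± 1.71 in wild type (SD, n = 3 each). The difference between genotypes was 1.68 ± 1.43 (SE, 95% interval −1.74 to 5.10, limma adjusted p = 0.66), smaller than the span within either genotype. The table holds no detection calls, so whether the 2 lowest COR27 values were above background was not examined.

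COR15A, the stromal protein gene, was at 13.97, 13.94 and 12.80 on the 3 pam48 arrays, against 13.67, 13.62 and 12.54 on the 3 wild-type arrays, in the order of replicates 1, 2 and 3. Here too the arrays numbered 3 stood below the others, with a difference of −1.15 in pam48 and −1.11 in wild type from the mean of replicates 1 and 2. The means were 13.57 ± 0.66 in pam48 and 13.27 ± 0.64 in wild type (SD, n = 3 each), and the genotypes overlapped. The difference was 0.29 ± 0.42 (SE, 95% interval −0.72 to 1.31, limma adjusted p = 0.81), against a span of 1.16 within pam48 and 1.13 within wild type. Whether these high levels were compressed at the upper end of the array's range was not tested. COR15B, a close relative of COR15A and its neighbour by locus number, has a probe set of its own, and cross-hybridisation between them was not examined.

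GI, the clock gene, varied the least of the 3. It was at 10.26, 10.61 and 9.64 on pam48 replicates 1, 2 and 3, against 10.04, 10.33 and 9.83 on wild type replicates 1, 2 and 3. The lowest and the highest of the 6 values were both from pam48, so that the wild-type values lay inside the pam48 range. The means were 10.17 ± 0.49 in pam48 and 10.07 ± 0.25 in wild type (SD, n = 3 each). The difference was 0.10 ± 0.26 (SE, 95% interval −0.53 to 0.73, limma adjusted p = 0.90), against a span of 0.97 within pam48 and 0.50 within wild type. For COR27, COR15A and GI an exact permutation test over the arrays gave two-sided p of 0.4, 0.5 and 0.8, where 0.1 is the smallest that 3 against 3 arrays allow.

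**Figure D1:**
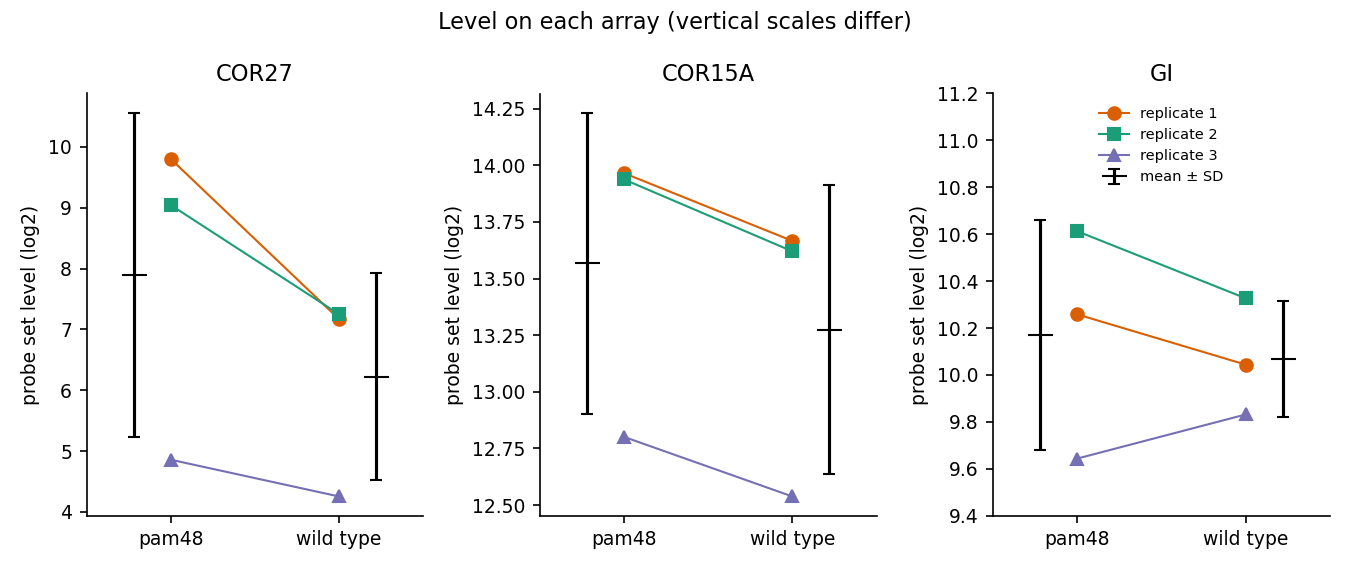
Probe set level (log2) of COR27, COR15A and GI on each of the 6 arrays, pam48 on the left and wild type on the right of each panel, with lines joining arrays of one replicate number and black bars giving mean ± SD. The purple triangles of replicate 3 are the lowest in both genotypes for each gene, and for COR27 they lie at 4.86 in pam48 and 4.25 in wild type.

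Set among all 22746 probe sets tested, limma called 0 of the 3 genes at an adjusted p under 0.05, where 0.778% of all probe sets were called, and 0 of the 3 had an unadjusted p under 0.05, where 13.5% of all did. No gene of the 3 separated the genotypes without overlap, which 20.5% of all probe sets did. The COR27 difference was larger in size than that of 99.6% of probe sets, although it was not called, and the share was 74.0% for COR15A and 36.0% for GI. The SD within genotypes was 2.24 for COR27, 0.65 for COR15A and 0.39 for GI, against a median of 0.18 over all probe sets. Only 24 probe sets had a wider SD than COR27, and 95.3% of probe sets had a narrower one than COR15A and 86.7% a narrower one than GI. These ranks describe the 6 arrays, and dim probe sets are among those with narrow SDs.

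**Figure D2:**
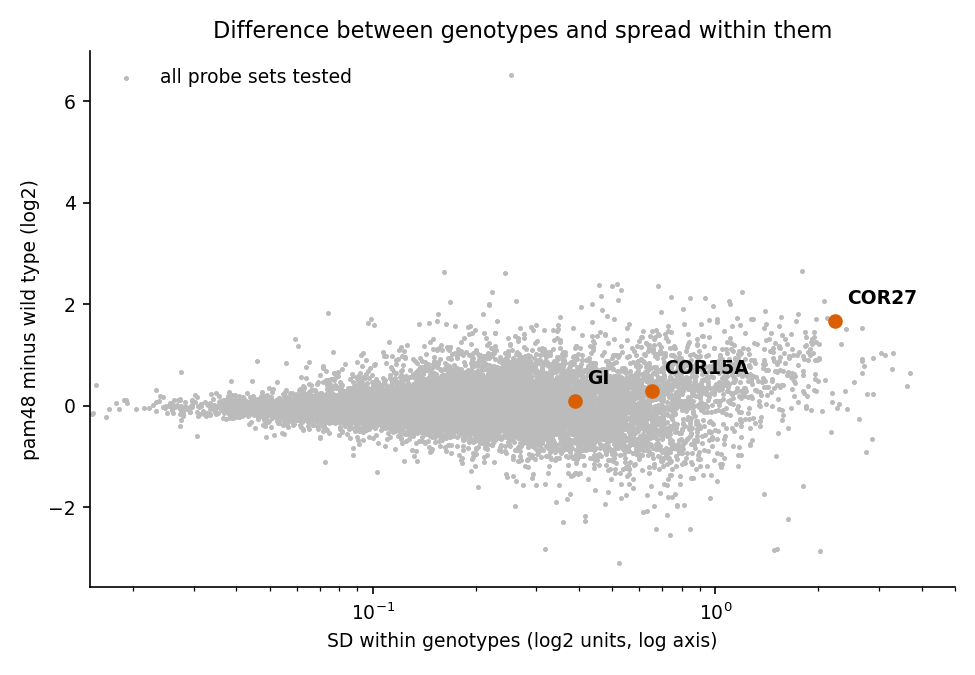
Each grey point is one of 22746 probe sets, with the SD within genotypes on the horizontal log axis (log2 units) and the difference pam48 minus wild type (log2) on the vertical axis; orange points are COR27, COR15A and GI. COR27 lies at the far right, with an SD of 2.24 and a difference of 1.68, while COR15A and GI lie near a difference of 0 at SDs of 0.65 and 0.39.

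The same replicate numbers 1, 2 and 3 are used for pam48 and for wild type. Arrays that share a number varied together over all probe sets, though only weakly for number 2. Between arrays of one number, COR27 was 2.63 higher in pam48 for number 1, 1.80 higher for number 2 and 0.60 higher for number 3, which is 6.20-fold, 3.47-fold and 1.52-fold. The number with the lowest COR27 levels thus had the smallest difference. COR15A was 0.30, 0.32 and 0.26 higher in pam48 for numbers 1, 2 and 3, an almost even difference of 1.2-fold to 1.25-fold with an SD of 0.03 over the 3 numbers. GI was 0.21 and 0.29 higher in pam48 for numbers 1 and 2, and for number 3 its difference was −0.19. Of all probe sets 17.2% were higher in pam48 in each of the 3 numbers, as COR27 and COR15A were.

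With the replicate number as a block the differences were the same in size, since each number holds 1 array of each genotype, and their errors shrank. The SE became 0.37 for COR27 (95% interval 0.77 to 2.59), 0.11 for COR15A (0.01 to 0.57) and 0.14 for GI (−0.25 to 0.46). In limma each SE draws on the spread of all probe sets as well as on the gene's own. The gene's own 3 differences had an SD of 1.02 for COR27, 0.03 for COR15A and 0.26 for GI. The COR27 interval thus leans on the other probe sets, and none was made from its own differences alone. The unadjusted p of this paired fit were 0.00443, 0.0422 and 0.493 for COR27, COR15A and GI, and the limma adjusted p over all probe sets were 0.10, 0.27 and 0.77, so that 0 of the 3 were called. In this fit 1.81% of all probe sets were called and 17.4% had an unadjusted p under 0.05. COR27 was the gene of the 3 nearest to a call.

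**Figure D3:**
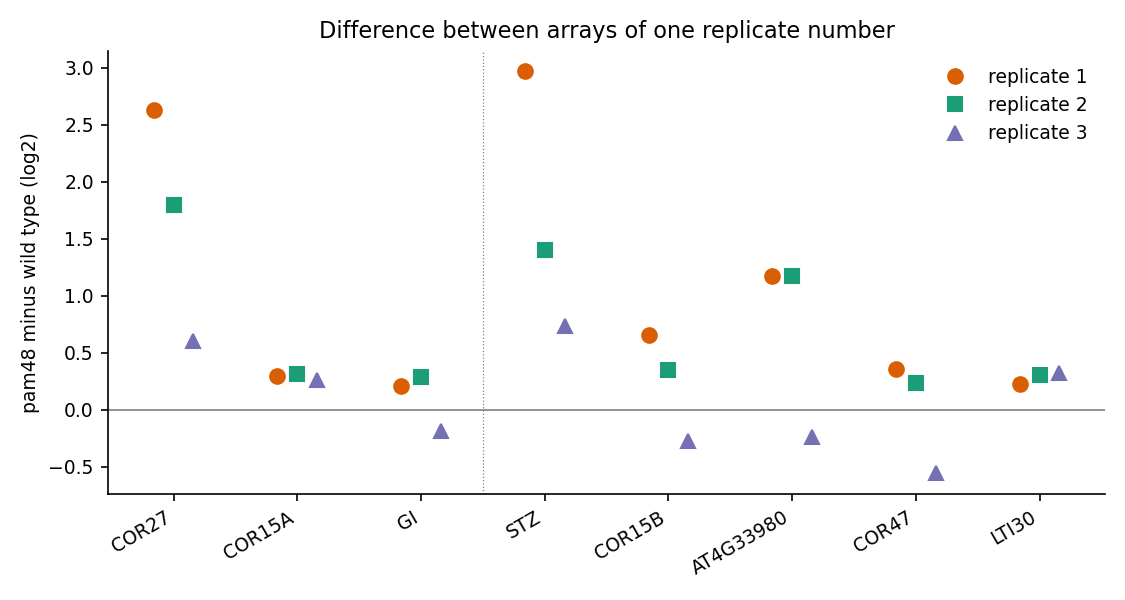
Difference pam48 minus wild type (log2) between the arrays of one replicate number, for COR27, COR15A and GI left of the dotted line and for 5 other genes of the cold list right of it; each symbol is one replicate number. COR15A and LTI30 have nearly equal differences for all 3 numbers, COR27 and STZ are above 0 throughout but differ between numbers, and GI, COR15B, AT4G33980 and COR47 are below 0 for number 3.

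The variation of each gene was split into a part that goes with genotype, a part that goes with replicate number and a remainder. For COR27 17.4% of the sum of squares over the 6 arrays went with genotype and 78.3% with replicate number. For COR15A the parts were 7.05% with genotype and 92.9% with replicate number, which leaves 0.0417% over. For GI they were 2.61% with genotype and 86.9% with replicate number. Over all probe sets the medians were 20.8% with genotype and 38.9% with replicate number. Replicate number has 3 values and genotype 2, so the parts are not on equal terms, and the medians over all probe sets are the base to read them against.

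An F-test of the replicate number, made in limma after the values of the 3 genes had been seen, gave adjusted p of 0.0807 for COR27, 0.0835 for COR15A and 0.32 for GI. It called 0 of the 3, and 22 of all 22746 probe sets, or 0.0967%. All 3 had an unadjusted p under 0.05 in it, against 11.3% of all probe sets. Number 3 was lowest in both genotypes in 3 of 3 genes, as in 11.1% of all probe sets. In 42.6% of all probe sets some number, the same in both genotypes, was lowest. Number 3 was picked out after its values were seen, so the shares describe these arrays.

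Other measures of the arrays were set beside these values. Array medians ranged over 6.38 to 6.55 and correlations between arrays over 0.952 to 0.992. The 3′ minus 5′ difference of the actin control was 2.70, 3.67 and 2.80 on pam48 replicates 1, 2 and 3, against 2.46, 2.77 and 3.23 on wild type replicates 1, 2 and 3, and number 3 was in the middle in pam48 and widest in wild type. The same difference of the GAPDH control was 1.44, 2.41 and 1.13 in pam48, against 1.37, 1.39 and 1.37 in wild type. It was narrowest on number 3 in pam48 and nearly even in wild type. Pam48 replicate 2, the array with the highest GI level, had the widest difference of both controls and the highest median, 6.55. The part of these measures in the 3 genes' values was not tested. Of 15 leaf mesophyll markers the 2 with a one-gene probe set, RCA and PRK, enzymes of carbon fixation or its activation, were bright on every array, RCA at 14.15 to 14.37 and PRK at 12.63 to 13.12. Among 3 measured markers of other tissues the widest difference was that of PYK10, a root beta-glucosidase, with 5.56, 9.74 and 7.29 in pam48 and 8.51, 5.21 and 5.19 in wild type, which did not follow the replicate number. FMA of guard cells was at 5.47 to 5.55 in pam48 and 5.70 to 6.08 in wild type, and CLV3 of the shoot apex at 3.20 to 3.34 in pam48 and 3.45 to 3.70 in wild type. Neither was called between the genotypes (limma adjusted p = 0.24 for FMA and 0.30 for CLV3). Of all probe sets 20.5% separated the genotypes without overlap, as these did. Whether the low CLV3 values were above background was not examined. The part of these tissues in the COR27, COR15A and GI values was not tested, and in leaf RNA fewer cells of a type and less RNA per cell cannot be told apart.

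The measured cold genes mostly shared the low arrays numbered 3. Of 47 loci in a list of the cold response 7 had a one-gene probe set, COR27 and COR15A among them. Limma called 0 of the 7 higher and 0 lower (0.778% of all probe sets were called), the unadjusted p was under 0.05 in 0 (13.5% of all), and their median difference was 0.29, where the median over all probe sets was −0.03. Without COR27 and COR15A, whose values had led to the choice of number 3, the arrays numbered 3 were lowest in both genotypes in 4 of the other 5 genes, against 11.1% of all probe sets. In these 5 genes the F-test of the replicate number had an unadjusted p under 0.05 in 5, against 11.3% of all probe sets, and it called 1.

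The called gene was LTI30, a dehydrin induced by low temperature. Its levels were 11.14, 9.12 and 7.26 on pam48 replicates 1, 2 and 3, against 10.92, 8.81 and 6.93 on wild type replicates 1, 2 and 3 (F-test of the replicate number, limma adjusted p = 0.0179). The 3 numbers lay further apart than the genotypes, and LTI30 was 0.23, 0.30 and 0.33 higher in pam48 within numbers 1, 2 and 3. COR15B, the relative of COR15A, was at 13.40, 13.46 and 11.95 in pam48, against 12.74, 13.11 and 12.22 in wild type. COR47, another dehydrin, was at 13.36, 12.48 and 11.11 in pam48, against 13.00, 12.25 and 11.67 in wild type. In COR15B and COR47 the array of replicate 3 was thus lower in pam48 than in wild type, which was so in GI as well but not in COR27 or COR15A. AT4G33980, which the tables name by locus only, was at 6.93, 7.81 and 4.19 in pam48, against 5.76, 6.63 and 4.43 in wild type, and its differences for numbers 1, 2 and 3 were 1.18, 1.18 and −0.24.

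STZ, a zinc finger repressor induced by cold, salt and wounding, was the cold list member without number 3 lowest in both genotypes. It was at 11.52, 7.53 and 7.11 in pam48, against 8.55, 6.13 and 6.37 in wild type. Its lowest array was replicate 3 in pam48 and replicate 2 in wild type. As in COR15A, LTI30 and COR47, replicate 1 was the highest in both genotypes. STZ also belongs to a list of touch and wounding genes, of which 3 of 14 were measured. CML38, a calmodulin-like gene, had 9.11 and GRX480, a glutaredoxin gene, had 10.44 on pam48 replicate 1, the highest of their 6 values. COR27 and COR15A were also highest on pam48 replicate 1, but COR15A by only 0.03 over pam48 replicate 2. In wild type too CML38 and GRX480 were highest on replicate 1, at 5.93 and 7.82, and their arrays numbered 3 were the lowest in both genotypes, with 4.33 and 6.26 in pam48 and 4.60 and 5.36 in wild type. Number 3 was thus lowest in both genotypes in 2 of the 3 touch and wounding genes, against 11.1% of all probe sets. The F-test of the replicate number had an unadjusted p under 0.05 in 3 of the 3, against 11.3% of all probe sets. STZ is 1 of these 3 and was already counted in the cold list. The part of touch or wounding in the values of COR27 was not tested.

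The genes of the clock and of day length were mixed. Of 54 listed loci 8 were measured, COR27, GI and AT4G33980 among them, and limma called 0 higher and 0 lower, with 0 at an unadjusted p under 0.05 and a median difference of 0.11 (0.778% and 13.5% of all probe sets were called and under 0.05). Without COR27 and GI, number 3 was lowest in both genotypes in 3 of the other 6 genes, against 11.1% of all probe sets. Beside AT4G33980 these were AT5G52660, with 8.76, 7.61 and 7.27 in pam48 against 7.77, 7.65 and 7.29 in wild type, and TIC, a nuclear regulator of the clock, with 9.37, 9.62 and 9.05 in pam48 against 9.42, 9.30 and 9.25 in wild type. The other 3 did not share this order. XCT, needed for clock timing, differed by −0.15 ± 0.16, FIO1, a gene named for its effect on flowering and clock period, by 0.12 ± 0.14, and AT1G69570 by −0.25 ± 0.22 (SE). In the 6 genes the F-test of the replicate number had an unadjusted p under 0.05 in 2, against 11.3% of all probe sets, and called 0. AT4G33980 is 1 of these 2 and 1 of the 3 genes lowest on number 3, and was already counted in the cold list.

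**Figure D4:**
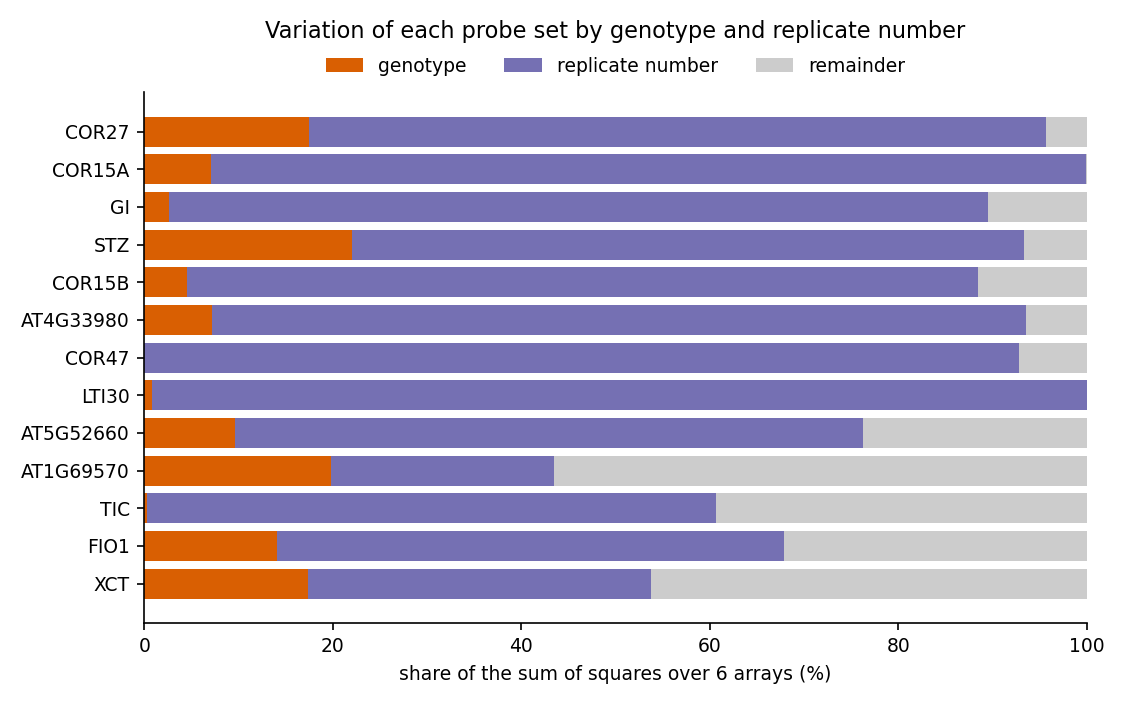
Share of the sum of squares over the 6 arrays (%) that goes with genotype, with replicate number and with neither, for COR27, COR15A and GI at the top, then the other 5 measured cold genes and the other 5 measured clock genes. Replicate number takes 78.3% in COR27, 92.9% in COR15A, 86.9% in GI and 99.2% in LTI30, against 23.6% in AT1G69570.

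Light signalling had 1 measured gene of 14 listed, HYH, a bZIP factor related to HY5. It was at 4.65, 5.14 and 4.71 in pam48, against 4.0, 3.67 and 3.90 in wild type, and so differed from the 3 genes in separating the genotypes and not the replicate numbers. With a limma adjusted p of 0.0727 HYH was not called, at a difference of 0.97 ± 0.17 (SE). None of 19 listed genes of abscisic acid and dehydration had a one-gene probe set. A further list of 12 genes was made after the names had been seen. It took names with the words cold, low temperature or late embryogenesis, and symbols made of LEA, RD, ERD, COR or LTI and a number. Of the 12 genes 0 were called, where 0.778% of all probe sets were, and 1 had an unadjusted limma p under 0.05, where 13.5% of all did. This list shares COR27, COR15A, COR15B, COR47 and LTI30 with the cold list. Of its 7 other genes number 3 was lowest in both genotypes in 1, RD2, a share near the 11.1% of all probe sets.

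The genes most like each of the 3 were looked for over the 6 arrays, among one-gene probe sets with an SD over the arrays of at least 0.5 times that of the gene. The Pearson correlation of log2 levels was the measure, and all 6 points share the arrays and their replicate numbers, so a high value is a description. COR27 was most like AT3G27210 (r = 0.97), AT1G07050 (0.94) and AT4G33980 (0.92), among 134 genes compared, of which 6 were over 0.9. COR15A was most like AT5G47060 (0.99), AT3G27210 (0.99) and AT1G07050 (0.98), among 3134 compared, of which 50 were over 0.9. GI was most like AT4G33980 (0.98), AT1G07280 (0.97) and ASPGA1, an asparaginase gene (0.97), among 7556 compared, of which 37 were over 0.9. Among themselves the 3 genes correlated at 0.97 for COR27 with COR15A, 0.84 for COR27 with GI and 0.85 for COR15A with GI.

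AT3G27210 and AT1G07050 were near the top for both COR27 and COR15A. AT3G27210 was at 7.97, 7.46 and 5.46 in pam48, against 7.06, 7.22 and 5.13 in wild type. AT1G07050 was at 9.08, 9.18 and 6.41 in pam48, against 8.23, 8.90 and 5.75 in wild type. Both had the low arrays numbered 3 and higher levels in pam48 within each number. The F-test of the replicate number gave a limma adjusted p of 0.0676 for AT3G27210 and 0.0441 for AT1G07050, the latter under the threshold. Both genes were picked for following COR27 and COR15A over these same arrays. Their pattern and its F-test therefore follow from the choice and are no separate support. None of the 6 genes found by likeness was called between the genotypes.

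When 1 array was left out, which breaks a pair, the difference between genotypes moved widely. For COR27 it lay between 0.69, without wild type replicate 3, and 3.20, without pam48 replicate 3, and stayed positive. For COR15A it was 0.68 without pam48 replicate 3 and −0.08 without wild type replicate 3. For GI the fit that left out pam48 replicate 3 gave 0.37, that without pam48 replicate 2 gave −0.12 and that without wild type replicate 3 gave −0.01. Leaving out both arrays of a number, in fits added after the values had been seen, moved the differences less. Without number 1 they were 1.2 for COR27, 0.29 for COR15A and 0.05 for GI, and without number 2 they were 1.62 for COR27, 0.28 for COR15A and 0.01 for GI. Without number 3 the differences were 2.21 ± 0.29 for COR27, 0.31 ± 0.13 for COR15A and 0.25 ± 0.20 for GI (SE, 2 arrays per genotype), with limma adjusted p of 0.24, 0.52 and 0.73, and the SD within genotypes was 0.38, 0.03 and 0.23. The 3 fits without a number called 4, 0 and 0 of all 22746 probe sets for numbers 1, 2 and 3, so that the lack of a call there says nothing of the 3 genes. In the limma fit without number 3 the unadjusted p were 0.00109 for COR27, 0.0724 for COR15A and 0.276 for GI. Number 3 was singled out after its low values in these same genes were seen, so these p are a description and no test of the genotypes.

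**Figure D5:**
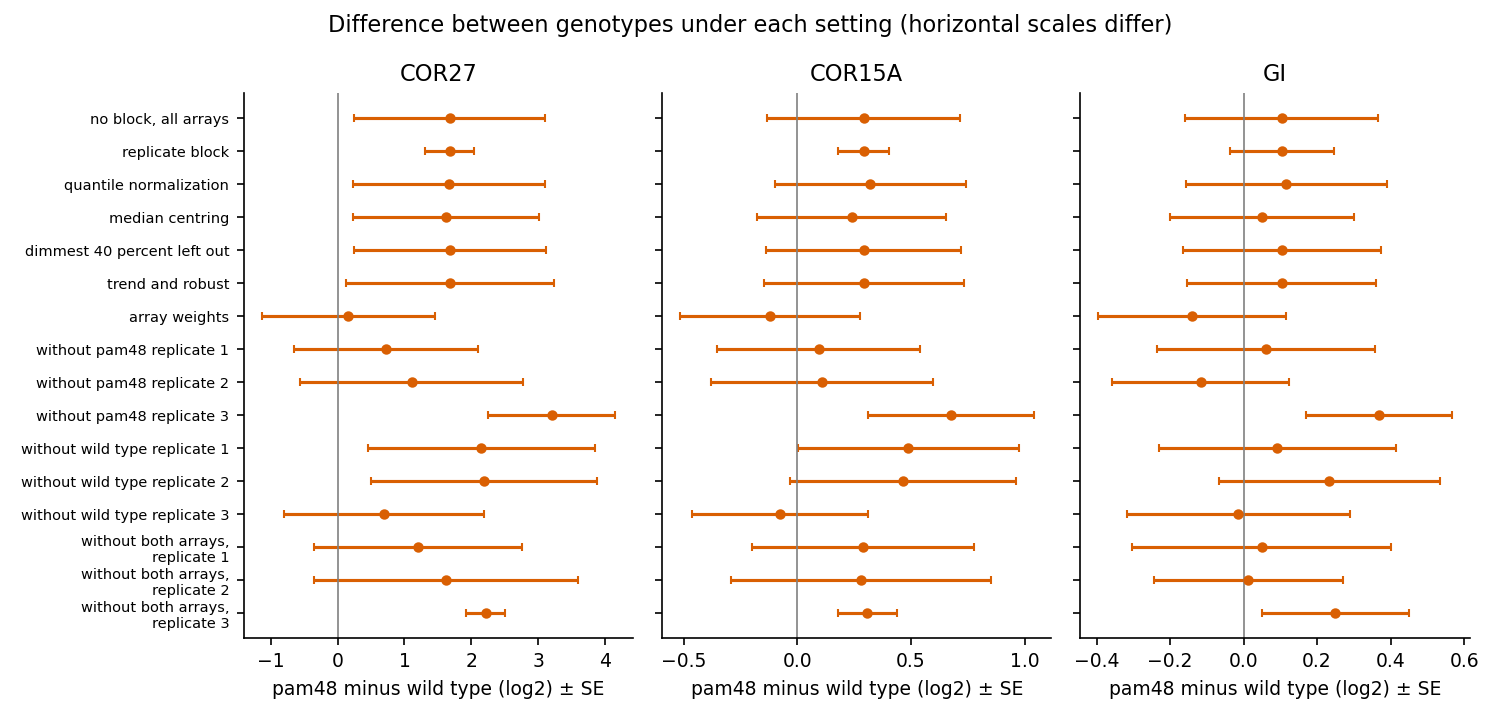
Difference pam48 minus wild type (log2, with SE bars) of COR27, COR15A and GI under each setting, from all arrays without a block at the top to fits without both arrays of one number at the bottom. COR27 is above 0 throughout, from 0.16 with array weights (SE 1.29) to 3.20 without pam48 replicate 3, while COR15A and GI lie on both sides of 0.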

How the data were processed

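The deposited table holds log2 values per probe set, 1 column per array, which the authors made with RMA per the submitters' processing notes. RMA settings and version are not stated there, and the log2 scale was inferred from the range of the values. Of 22810 rows 64 were control probe sets, and 22746 were tested. Gene names came from the platform annotation at GEO and were updated with the TAIR10.1 gene table: 13513 had 1 gene, 503 several and 8730 none. The number of arrays limits the precision.

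The fits used limma 3.58.1 under R 4.3.3, with eBayes after lmFit, two-sided, pam48 minus wild type, and Benjamini-Hochberg adjustment over all probe sets tested. The eBayes step moderates each gene's SE, interval and p with the spread of all probe sets. Called means an adjusted p under 0.05. The fits were also run on simulated arrays with independent noise, in which few probe sets followed the replicate number. That setting differs from these arrays, so it cannot check the unpaired fit for them. After each genotype's mean was taken off, arrays of one number correlated at 0.53, 0.20 and 0.54 for numbers 1, 2 and 3. Each was above the limit of 0.1, so the numbers were taken to pair them. Among arrays of unlike number pam48 replicate 2 with wild type replicate 3 also passed it, at 0.11, and the others were negative. The limit thus sets number 2 only weakly apart. The pairing rests on the data, since the labels say nothing of it. The fit without the block had been set as the main one and stayed so: intervals, permutation tests and fits that leave out arrays are unpaired unless the block is named. Genes in 7 lists (169 loci, of which 21 were measured) were described by counts and medians. A gene was named if it was a measured member of the cold or clock list, if it had the largest difference of another list, or if it was among the 3 most like COR27, COR15A or GI; further genes were chosen after their values were seen. The members and the lists were chosen with earlier results of these data known. Promoter sequences were not used here, so a description of genes by promoter motif was not made. Alternatives were a replicate block, quantile normalization, median centring, leaving out the dimmest 40% of probe sets, trend and robust settings, array weights, a threshold of 0.01 and leaving out arrays.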

Additional observations from a re-analysis of the deposited data

How the results depend on the processing

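COR27 kept its direction in all 15 alternatives. The replicate block, leaving out the dimmest 40% and the trend and robust settings leave the difference itself at 1.68, so they could not turn it. COR27, COR15A and GI were not called in any of them, which says nothing where few probe sets were called at all: 1 of 22746 without any 1 of the wild-type arrays, 12 without pam48 replicate 2, and 4, 0 and 0 without both arrays numbered 1, 2 and 3. With array weights the differences were 0.16 ± 1.29 for COR27, −0.12 ± 0.40 for COR15A and −0.14 ± 0.26 for GI (SE), the last 2 turned in direction. The weights were 0.37, 0.71 and 1.40 on pam48 replicates 1, 2 and 3, against 1.24, 2.43 and 0.89 on wild type replicates 1, 2 and 3. The low replicate 3 thus had the highest weight in pam48 and the lowest in wild type. Each SE there was wider than its difference, so the direction of COR27 was not resolved either. When arrays were left out, 1 at a time or both of a number, the differences ranged from 0.69 to 3.20 for COR27, from −0.075 to 0.68 for COR15A and from −0.12 to 0.37 for GI. They were −0.075 for COR15A and −0.01 for GI without wild type replicate 3, and −0.12 for GI without pam48 replicate 2. Wild type replicate 3 was the lowest wild-type array for both genes and pam48 replicate 2 the highest for GI. Leaving them out raised the wild-type mean or lowered the pam48 mean. Why these arrays stood apart was not tested. The SD within genotypes was 0.72 for COR27, 0.02 for COR15A and 0.18 for GI with the replicate block. The count of 177 called probe sets became 412 with the replicate block, 351 with array weights and 8 at an adjusted p under 0.01, and it ranged from 0 to 291 when arrays were left out. Signal over background was not examined, as the table holds no detection calls.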
